A study of Mus musculus with 4 samples.

Results

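The Msx, Dlx and Alx genes described here are 7 homeobox genes, Msx1, Msx2, Dlx5, Dlx6, Dlx3, Alx1 and Alx4, taken by symbol from the 32287 features measured. All 7 were found in each of the 4 single-cell libraries. The libraries came from male mouse genitalia (penis) at embryonic day 16.5 (E16.5), when the urethra is closing. The 2 control libraries (DTA- 1 and DTA- 2, labelled WT) carried, per the study's methods, the Rosa-LSL-DTA allele without Cre, so the loxP-stop diphtheria toxin allele was present in both groups. The 2 ablated libraries (DTA+ 1 and DTA+ 2) carried the Nr5a1-Cre transgene and Rosa-LSL-DTA, and their crosses also used Rosa-LSL-tdTomato. The Cre is driven by regulatory sequence of Nr5a1, which marks a population that enters the penis from outside, but it is also active in the testes and adrenals, so the loss of those organs' hormones and the local loss of cells cannot be told apart here. How many embryos went into a library is not given in the sources used here, and p-values measure only the spread between these libraries.

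Homeobox proteins bind DNA through the homeodomain, a stretch of helices of which the last, the recognition helix, lies in the major groove. Msx proteins act mainly as repressors downstream of BMP signals in budding mesenchyme, limb and genital tubercle. Dlx5 and Dlx6 are neighbours that share enhancers, respond to endothelin signalling in the jaw and are needed for the genital tubercle. Dlx3 acts in epidermis, hair and bone. Alx proteins pattern the mesenchyme of face, limb and ventral body wall.

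The codons of the recognition helix are shown for 6 of the genes because they set the 3 families apart. Each sequence of 51 bases was read from GENCODE transcripts (GRCm38), and capitals mark the 6 codons of the conserved core of the helix.
Msx2: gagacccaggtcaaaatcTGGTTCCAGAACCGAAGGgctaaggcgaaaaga
Dlx5: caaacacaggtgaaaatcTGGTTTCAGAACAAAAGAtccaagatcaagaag
Dlx6: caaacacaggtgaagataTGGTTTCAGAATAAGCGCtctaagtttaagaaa
Dlx3: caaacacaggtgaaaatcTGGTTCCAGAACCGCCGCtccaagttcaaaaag
Alx1: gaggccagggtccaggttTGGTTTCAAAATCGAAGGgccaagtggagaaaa
Alx4: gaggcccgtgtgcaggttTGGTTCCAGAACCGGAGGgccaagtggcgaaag
Msx1 (ENSMUSG00000048450) is at chr5:37820485-37824583, minus strand. Msx2 (ENSMUSG00000021469) is at chr13:53466884-53473074, minus strand, with its helix in the coding part of exon 2 (53468376-53468426). In the Dlx and Alx genes the helix codons run across an exon junction. Dlx5 (ENSMUSG00000029755, chr6:6877805-6882085, minus strand) and Dlx6 (ENSMUSG00000029754, chr6:6863334-6868568, plus strand) lie 9236 bases apart in opposite orientation. Dlx3 (ENSMUSG00000001510) is at chr11:95120119-95125296, plus strand. Alx1 (ENSMUSG00000036602) is at chr10:102998707-103030215, minus strand, and Alx4 (ENSMUSG00000040310) at chr2:93642384-93681339, plus strand.

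Over the 60 codons of the homeobox, Msx1 and Msx2 encode 58 identical residues, Alx1 and Alx4 encode 55, and Dlx5 shares 53 with Dlx3 and 51 with Dlx6. From family to family, 24 to 35 residues were identical. The base identity was lower, 82.2% for Msx1 with Msx2 and 76.7% for Alx1 with Alx4. No word of 31 bases was shared between any pair in the last 500 bases of their transcripts, the stretch that a 3′ library reads. Dlx6 has a further limit. The antisense gene Dlx6os1 (chr6:6820189-6871592, minus strand) covers the whole of Dlx6, and the strand setting of the counting is not given in the sources used here, so reads of Dlx6 and Dlx6os1 may be mixed.

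The deposited matrices held 11343 to 12580 cells per library. After the limits of the study (more than 1000 and fewer than 7500 UMIs, molecules counted once by their tag), 6573 to 8810 cells per library were kept, with median depths of 3551 to 4700 UMIs, deepest in DTA- 1. Pairs of libraries shared 31 to 48 cell barcodes. tdTomato, the reporter, had 0 UMIs in both DTA- libraries and 3579 and 3140 in DTA+ 1 and DTA+ 2 over all deposited cells, while Nr5a1 itself had 1 or 2 UMIs per library. The 31132 cells fell into 27 clusters, 19 of them mesenchymal (28351 cells). Of the 27, 17 carried the name of a cell type from its markers, written with "-like", and the others are given by number and leading genes. The homeobox families were left out of the genes used for clustering, so that a cluster was not drawn by the genes measured in it. Levels across clusters are nevertheless a description without a test, since clusters come from the same libraries.

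All 7 genes were highest in mesenchymal clusters, and all were low in a block of mesenchymal clusters that made up 24.7% to 41.3% of the mesenchymal cells per library. That block holds clusters 0 (leading genes Sostdc1 and Wnt16), 3 (Irx1, Col7a1), 11 (Ly6a, Igfbp5), 13 (Ccn3, Dpt), 14 (proliferative-like) and 17 (Iyd). It supplied 0.967% to 3.80% of the mesenchymal Msx1 UMIs of a library. Clusters 11 and 17 held cells mostly of one genotype, with 261 and 838 cells of cluster 11 in the DTA- libraries against 21 and 7 in the DTA+ libraries, and 1 and 6 cells of cluster 17 against 534 and 299. The highest mean level of any of the 7 genes in these 2 clusters was 10.3 CPM (UMIs of the gene per 1000000 UMIs of that cluster and library), for Msx1 in cluster 17.

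**Figure D1:**
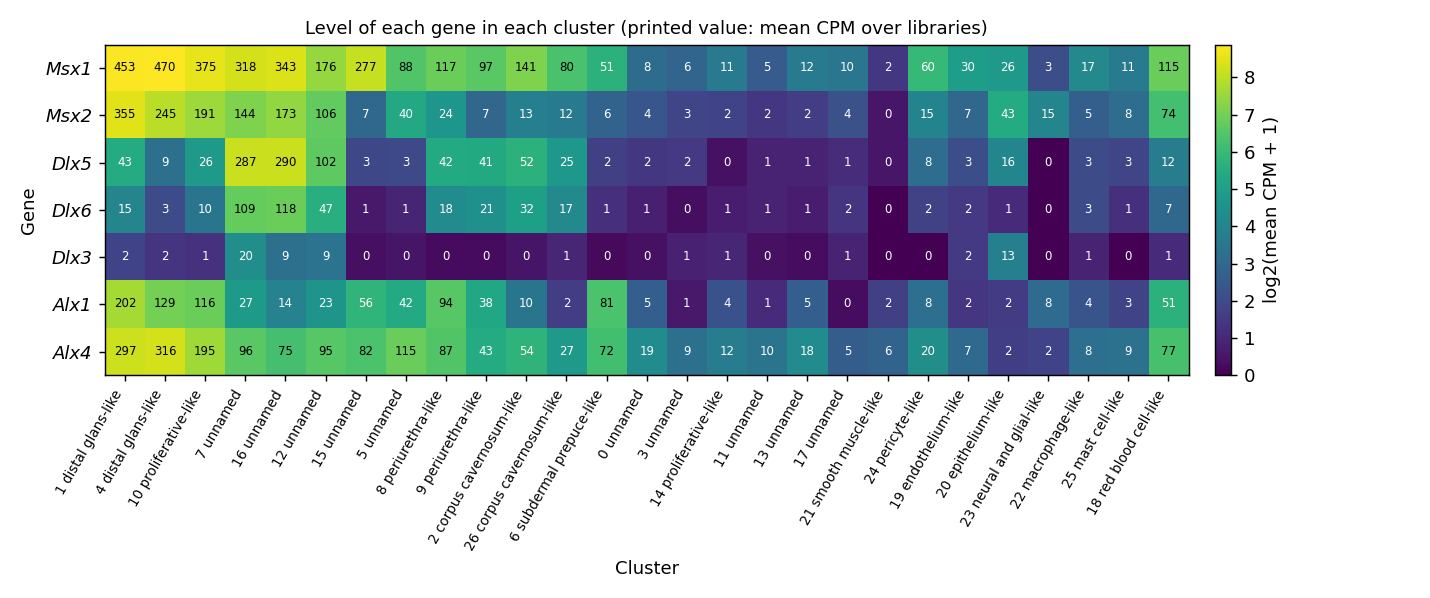
Heat map of 7 genes (rows) by 27 clusters (columns), coloured by log2(mean CPM + 1), with the mean CPM over libraries of at least 20 cells printed in each cell. Msx1, Msx2, Alx1 and Alx4 peak in distal glans-like clusters 1 and 4, Dlx5 and Dlx6 in unnamed clusters 7 and 16, and Dlx3 in cluster 7.

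Msx1 and Msx2, the repressors downstream of BMP, were highest in the distal glans-like clusters 1 (leading genes Inhba, Htr3b) and 4 (Tac1, Tfap2c). Msx1 reached 470.1 CPM in cluster 4 (range over the 4 libraries 379.5 to 527.4) and 452.6 in cluster 1 (397.8 to 536.6), followed by proliferative-like cluster 10 at 374.7 and cluster 16 (Hand2, Prss35) at 342.8. Msx2 was 355.0 CPM in cluster 1 (265.4 to 459.2) and 245.2 in cluster 4 (194.0 to 282.8). The library ranges of all 26 pairs of neighbours in the order overlapped for both genes. These ranges pool the libraries, although neighbouring clusters come from the same ones. Library by library, Msx2 in cluster 1 was 368.8, 326.5, 265.4 and 459.2 CPM (DTA- 1, DTA- 2, DTA+ 1, DTA+ 2). In cluster 4 it was 279.7, 194.0, 224.3 and 282.8, lower in each. For Msx1, cluster 4 was above cluster 1 in both DTA+ libraries and below it in both DTA- libraries. The paralogues parted in places. Cluster 15 (Kera, Nefl) held Msx1 at 276.5 CPM and Msx2 at 6.8, and corpus cavernosum-like cluster 2 held 141.1 and 13.3, whereas the epithelium-like cluster 20 held 26.2 and 43.0.

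Dlx5 and Dlx6, the linked pair, were highest in 2 clusters left unnamed in the main clustering. That label depended on the setting. At the lower clustering resolution, the cluster led by Dsc3, Hs3st3b1 and Dlx5 was named distal glans-like. With no upper UMI limit, the cluster led by Dlx5, Prss35 and Hand2os1 was named so too, and the one led by Dsc3 and Hs3st3b1 was not. At the higher resolution, the clusters led by Cpm and Hs3st3b1 and by Hand2os1 and Prss35 stayed unnamed. Cluster 16 held Dlx5 at 289.7 CPM (203.9 to 337.4) and cluster 7 (Cpm, Hs3st3b1) at 287.4 (224.1 to 364.0), and these ranges overlapped. Cluster 12 (Wnt10a, Notum) followed at 101.7 CPM (83.4 to 124.1), with a range that overlapped neither that of cluster 7 nor that of the next cluster. Corpus cavernosum-like cluster 2 (51.8 CPM), distal glans-like cluster 1 (42.7) and the periurethra-like clusters 8 and 9 (42.1 and 40.6) came next. Dlx6 kept the same leading order, with 117.7 CPM in cluster 16, 108.7 in cluster 7 and 47.2 in cluster 12, again without overlap between clusters 7 and 12. In distal glans-like cluster 4, where Msx1 peaked, Dlx5 was at 8.7 CPM and Dlx6 at 3.2.

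Dlx3 was low throughout. Its highest mean was 19.9 CPM in cluster 7 (15.4 to 25.5), followed by the epithelium-like cluster 20 at 13.2 (5.6 to 18.5), where it is known from epidermis. Clusters 12 and 16 held 9.4 and 8.8 CPM. In 25 of 27 clusters the mean was under 10 CPM.

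Alx1 and Alx4 extended beyond the distal glans-like clusters, as did Msx1 and Msx2. Means of 100 CPM or more were found in 10 clusters for Msx1, 6 for Msx2, 4 for Alx4 and 3 for Alx1. Those of Msx1 include the red blood cell-like cluster 18. Alx1 was 202.2 CPM in cluster 1 (164.4 to 258.4), with a range above that of cluster 4 (129.0, 111.9 to 151.2). It was 93.5 in periurethra-like cluster 8 and 80.6 in subdermal prepuce-like cluster 6, where Msx1 was at 117.0 and 50.7 CPM. Alx4 was 315.9 CPM in cluster 4 and 296.6 in cluster 1, and 115.0 in cluster 5 (Coch, Meox2). It was under 10 CPM in 9 of 27 clusters, against 15 of 27 for Alx1. The low block above held Alx4 at means of 5.2 to 19.2 CPM.

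A background level was read from cells outside the mesenchyme. Macrophage-like cells, which should lack them, held a mean of 17.1 CPM of Msx1 (3.0 to 43.2), 5.4 of Msx2, 3.1 of Dlx5, 4.0 of Alx1 and 8.4 of Alx4, and mast cell-like cells 11.5 CPM of Msx1. With every cell thinned to 1000 UMIs, 0% to 4.2% of macrophage-like cells per library had a Msx1 UMI (1.3% to 8.5% before thinning, median depth 4816.5 UMIs). In cluster 7 the thinned share was 21.8% to 30.1% (50.2% to 68.6% before, median depth 3381 UMIs). Levels of Msx1 in clusters 0, 3, 11, 13, 14 and 17 were at or below the macrophage-like level and are read as background. The red blood cell-like cluster 18 held more, 115.2 CPM of Msx1, 77.0 of Alx4 and 51.0 of Alx1, above the macrophage-like level for each. Why it did was not tested. Means of Msx1 in clusters 6 and 9, Alx4 in cluster 6 and Alx1 in cluster 5, compared by genotype below, were under those of cluster 18.

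Across the 27 clusters, the gene most like Dlx5 was Dlx6 (Pearson r = 0.98 of log2(CPM + 10), over 10918 other genes) and the reverse held too. Next to Dlx5 came Cnksr2 and Dync1i1 (r = 0.91 for each), and next to Dlx6 came Dlx6os1 and Dync1i1 (0.91 for each), of which Dlx6os1 shares its locus. Msx1 was most like Hoxa13 (r = 0.89), a distal limb and genital homeobox gene, then Alx4 and Tbx3os1 (0.86 for each). Msx2 was most like Gm9866 (0.88), Gm43376 (0.85) and Bambi (0.84), a BMP and activin pseudoreceptor. Alx4 was most like Hoxa11os (0.90), Alx1 (0.88) and Tbx3os1 (0.87), and Alx1 most like Alx4, Prkg2 (0.83) and Gm9866 (0.81). Dlx3 was most like the desmosomal cadherin gene Dsc3 (0.86), Gata3 and Slc25a13 (0.85 for each). Between families the values ran from 0.04 (Alx1 with Dlx3) to 0.86 (Msx1 with Alx4). These correlations are across clusters that share libraries, and are a description.

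Detection of paralogues in the same cell was then counted within clusters. Among mesenchymal cells with a Dlx6 UMI after thinning, 12.9% to 23.5% per library also had Dlx5, against 11.4% to 18.2% of cells of the same clusters and libraries without Dlx6, higher in 3 of 4 libraries and lower in DTA+ 1. For Msx1 in cells with Msx2 the shares were 28.9% to 36.7% against 25.3% to 32.7%, higher in 4 of 4 libraries. For Alx1 in cells with Alx4 they were 7.4% to 12.6% against 6.7% to 12.05%, again higher in 4 of 4. For Dlx3 in cells with Dlx5 they were 0% to 1.9% against 0.4% to 1.1%, higher in 3 of 4. That pair rested on 0 to 8 cells with both per library. From one family to another, Msx1 in cells with Dlx5 was at 25.4% to 28.3% against 17.1% to 25.99%, higher in 3 of 4. In DTA- 2 it was 25.7% against 17.1%, a wider gap than for any paralogue pair in any library. Msx2 in cells with Alx4 was at 14.1% to 18.6% against 10.5% to 19.7%, higher in 3 of 4. Dlx5 in cells with Alx1 was at 1.99% to 4.61% against 2.76% to 4.54%, higher in 1 of 4. Higher shares were therefore not confined to paralogues.

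The genotypes were then compared to ask whether loss of the Nr5a1-lineage cells moved these genes in the cells that remained. Counts were summed per library and tested by quasi-likelihood in edgeR, with p-values adjusted over all genes by Benjamini-Hochberg and a threshold of 0.05. Over all kept cells, 0 of the 7 genes passed, where 0.488% of the 15977 genes tested did. Summed over mesenchyme, 0 of 7 passed, where 1.22% of 15202 genes did. At an unadjusted p under 0.05, 1 of the 7 (Dlx3) passed in each, beside 2409 of all genes over all cells and 2641 in mesenchyme. DESeq2 also called 0 in both, and edgeR's likelihood ratio test called 0 over all cells and 1, Dlx3, in mesenchyme.

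The genotypes overlapped for 6 of the 7. Msx1 in mesenchyme was 200.5 and 104.2 CPM in DTA- 1 and DTA- 2, and 117.1 and 191.9 in DTA+ 1 and DTA+ 2. DTA- 1 and DTA+ 2 were high and the other 2 low, so the genotypes overlapped (log2 fold change -0.05, SE 0.33, adjusted p = 0.95 by edgeR). Msx2 (84.9, 44.7, 49.8 and 113.0 CPM in the same order) and Dlx5 (50.1, 23.7, 31.01 and 50.5) followed the same pattern. Alx4 stood out in DTA+ 2 alone, at 131.6 CPM against 68.7 to 84.1 in the other 3.

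**Figure D2:**
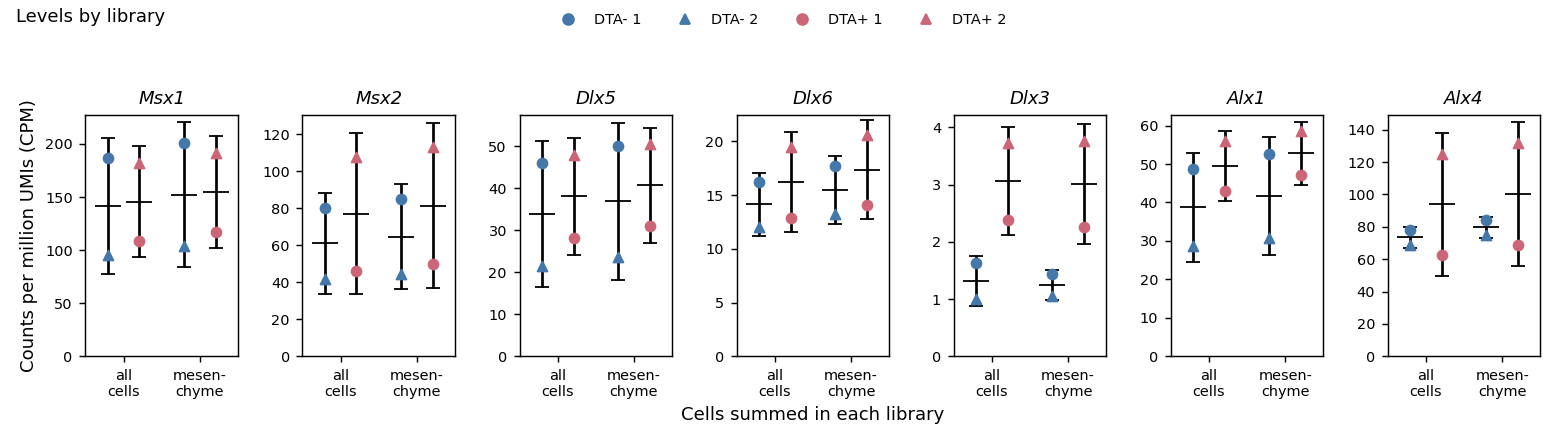
CPM of each gene in each library (circles replicate 1, triangles replicate 2, blue DTA-, red DTA+), summed over all cells and over mesenchyme, with the mean and SD of each genotype in black. The genotypes overlap for 6 genes, and only Dlx3 lies higher in both DTA+ libraries.

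The shares of clusters 1 and 4 and of clusters 7, 12 and 16 moved with these levels, and that of cluster 10 did not. Distal glans-like clusters 1 and 4 made up 18.8%, 11.8%, 13.5% and 21.3% of mesenchymal cells in DTA- 1, DTA- 2, DTA+ 1 and DTA+ 2, and clusters 7, 12 and 16 made up 12.9%, 7.6%, 10.0% and 17.8%. Both shares were highest in DTA+ 2 and lowest in DTA- 2. Proliferative-like cluster 10 made up 5.95% and 6.52% of mesenchymal cells in the DTA- libraries against 2.05% and 2.83% in the DTA+ libraries. It supplied 13.7% and 18.97% of the mesenchymal Msx1 UMIs in DTA- 1 and DTA- 2, against 8.28% and 7.24% in DTA+ 1 and DTA+ 2. Clusters 1 and 4 supplied 34.7% to 44.4% of the mesenchymal Msx1 UMIs of a library and 52.2% to 59.1% of those of Msx2, and clusters 7, 12 and 16 supplied 52.4% to 68.4% of those of Dlx5. Over summed cells a change in the number of cells of a type cannot be told apart from a change in RNA per cell, and how much of each library was dissected is not given in the sources used here.

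**Figure D3:**
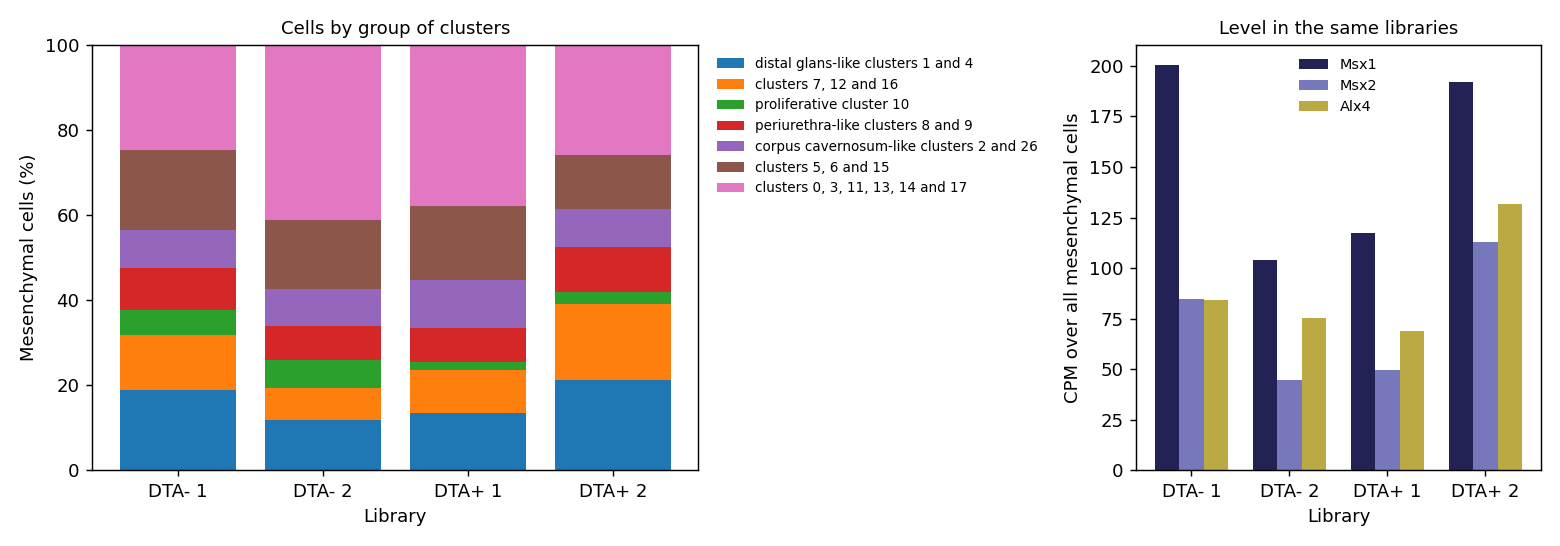
Left, percent of mesenchymal cells in 7 groups of clusters, stacked by library. Right, CPM of Msx1, Msx2 and Alx4 over all mesenchymal cells of the same libraries. DTA- 1 and DTA+ 2 have the larger shares of clusters 1 and 4 and of clusters 7, 12 and 16, and also hold the higher Msx1 and Msx2.

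Dlx3 was the member nearest to the threshold. In mesenchyme it was 1.44 and 1.06 CPM in the DTA- libraries and 2.27 and 3.75 in the DTA+ libraries (40, 31, 60 and 119 UMIs), higher in 2 of 2 without overlap (log2 fold change 1.203, SE 0.34, unadjusted p = 0.0090 and adjusted p = 0.15 by edgeR). Groups did not overlap for 51.5% of all genes tested there. It passed without DTA+ 1, in a fit with DTA+ 2 as the only DTA+ library. Within cluster 7, the single mesenchymal cluster in which Dlx3 had counts enough to test, it was 15.4, 16.8, 21.7 and 25.5 CPM (log2 fold change 0.61, SE 0.31, adjusted p = 0.33).

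Within clusters, the 7 genes could be tested in 80 pairs of gene and cluster, of 161 possible over the 23 clusters with at least 20 cells in every library, the rest having too few counts. Of the 80 pairs, 8 passed the threshold, 2.97% being the share of all gene and cluster pairs that did. At an unadjusted p under 0.05, 26 of the 80 passed, beside 24277 of all 180853 gene and cluster pairs. The 8 past the adjusted threshold lay in 4 of the clusters and went both ways, with Msx1, Dlx5 and Dlx6 lower in periurethra-like cluster 9, Msx1, Alx1 and Alx4 higher in subdermal prepuce-like cluster 6, Alx1 higher in cluster 5 and Msx2 higher in cluster 16. Clusters 11, 13 and 17, where cells of one genotype were scarce, and smooth muscle-like cluster 21 were not tested.

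**Figure D4:**
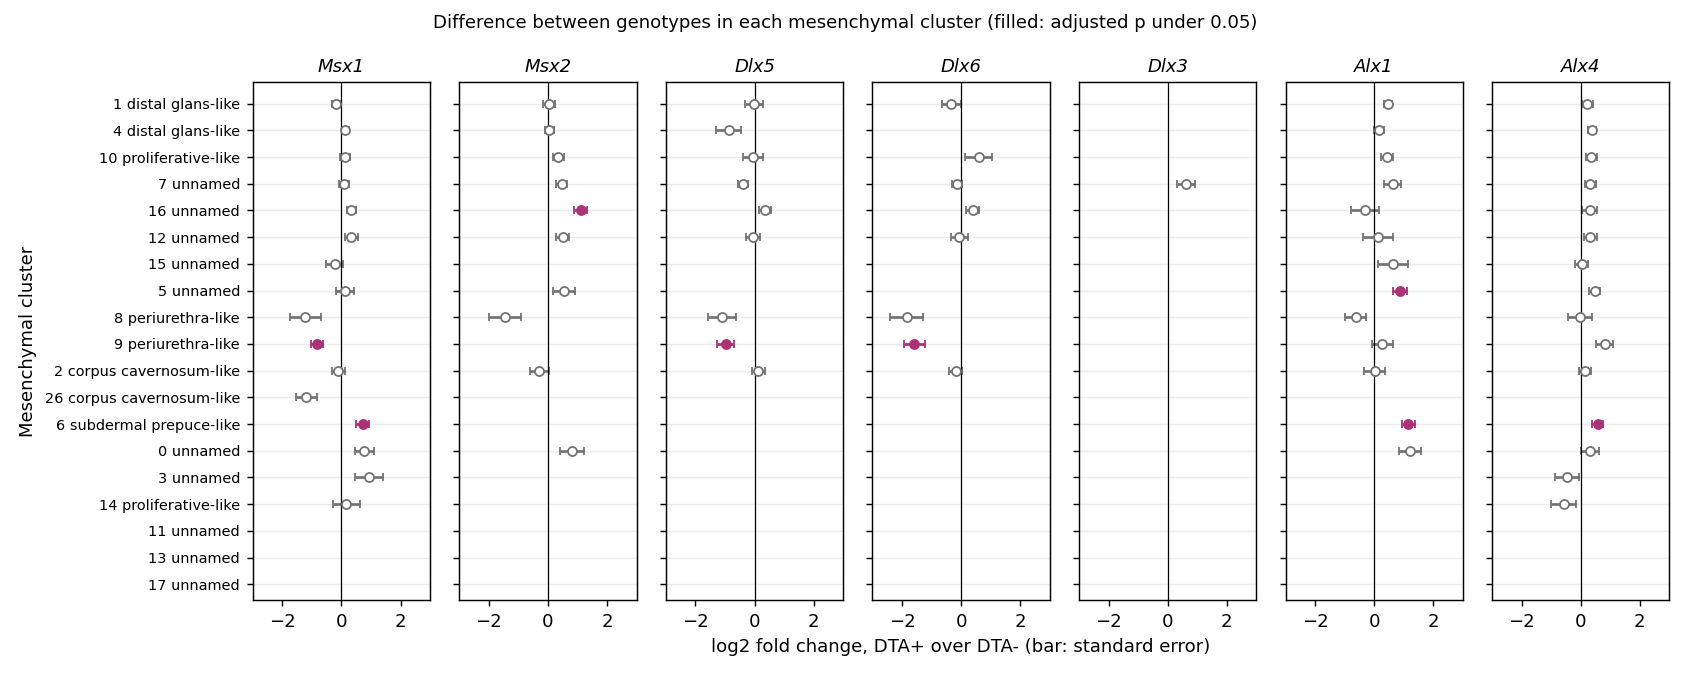
log2 fold change (DTA+ over DTA-) of each gene in each mesenchymal cluster with its standard error, filled where the edgeR adjusted p is under 0.05 and absent where counts were too low or a library had under 20 cells. Msx1, Dlx5 and Dlx6 lie left of 0 in clusters 8 and 9, and Alx1 lies right of 0 in 11 of 13 clusters.

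In the periurethra-like cluster 9 (Mup17, Epha3, Hhip), mesenchyme by the urethra, Msx1, Dlx5 and Dlx6 fell. Msx1 was 119.0 and 127.3 CPM in the DTA- libraries and 62.8 and 78.0 in the DTA+ libraries. Dlx5 was 49.3 and 59.9 against 20.9 and 32.3 CPM, and Dlx6 was 25.6 and 38.3 against 9.0 and 11.6. For each of the 3, both DTA+ libraries were below both DTA- libraries, where the genotypes did not overlap for 44.8% of all genes. The log2 fold changes were -0.81 for Msx1 (SE 0.20, adjusted p = 0.017), -0.98 for Dlx5 (SE 0.28, adjusted p = 0.040) and -1.58 for Dlx6 (SE 0.36, adjusted p = 0.0070, all by edgeR). Thus 3 of the 5 members tested were lower, where 2.35% of all genes tested were. The other 2 were Alx4, at 27.6, 35.8, 41.9 and 65.8 CPM (adjusted p = 0.12), and Alx1, at 36.2, 26.6, 67.3 and 22.5 CPM. With no test, the thinned share of cells with Msx1 was 9.9% and 10.7% in the DTA- libraries against 4.9% and 7.4%, while 36.1% and 34.9% against 14.8% and 20.1% had it before thinning.

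These 3 calls rested on the libraries to different degrees. Without DTA- 2 the adjusted p was 0.051 for Msx1, 0.12 for Dlx5 and 0.076 for Dlx6, and without DTA+ 1 it was 0.13 for Msx1 and 0.26 for Dlx5. DESeq2 gave adjusted p = 0.19, 0.41 and 0.19, and with thinned cells it was 0.26 for Msx1 and 0.60 for Dlx5. Haemoglobin RNA moved with them, as the red blood cell markers in cluster 9 summed to 5387 and 3904 CPM in the DTA- libraries against 573 and 488 in the DTA+ libraries, with 4 of 4 tested lower and 2 of 8 at 0 throughout. Of the distal glans markers, 2 of 7 tested (Tac1, Inhba) were higher, summing to 828 and 883 against 1088 and 1090 CPM. Of the subdermal prepuce markers 2 of 6 tested (Thbd, Smoc1) were lower, and of the periurethra markers 0 of 6 changed. The part of these in the result was not tested.

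The list of BMP inputs and targets had 3 calls in the same cluster. Of 13 tested, Id1, Id2 and Id4, inhibitors of differentiation that BMP signals induce, were lower and 0 were higher. Id2 was 544 and 453 CPM in the DTA- libraries against 263 and 185 in the DTA+ libraries (log2 fold change -1.23, SE 0.19). The list's median log2 fold change was -0.04, beside 0.00 over all genes. Of the 8 other homeobox genes tested there, 1 was higher, Prrx1, a limb and genital mesenchyme gene (414, 422, 824 and 668 CPM). Of 7 endothelin axis genes and 5 osteogenic genes tested, 0 passed.

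The other such cluster, 8 (Sall3, Mmp11), had lower values that did not pass with all 4 libraries. Msx1 was 194.4 and 133.0 CPM in the DTA- libraries against 21.4 and 119.2 in the DTA+ libraries, and Dlx6 was 25.4 and 32.8 against 1.5 and 13.6 CPM. DTA+ 1 was below the other 3 for all 6 members tested. Of those 6, 0 passed, where 2.81% of all genes tested did, and 4 did not overlap between genotypes, against 46.4% of all genes. The adjusted p was 0.30 for Msx1 and 0.13 for Dlx6 by edgeR (log2 fold changes -1.22 and -1.84). Both values turned on the DTA+ libraries. Without DTA+ 2 the log2 fold changes were -2.96 and -4.17, and without DTA+ 1 they were -0.51 and -1.11. Each of these fits rested on 1 DTA+ library, so its spread came from the DTA- pair. In all, Msx1 passed in 3 of 16 alternatives and Dlx6 in 5 of 15, with fits of this kind among the alternatives. Red blood cell markers summed to 3815 CPM in DTA+ 1 and 231 in DTA+ 2, against 2360 and 1177 in the DTA- libraries. Distal glans markers Tac1, Inhba and Wnt5a of 8 tested were higher (list sums of 1381, 1196, 2076 and 2290 CPM). Of the periurethra markers Hhip and Foxl2 of 7 tested were higher, and of the subdermal prepuce markers Ptgis and Smoc1 of 6 were lower. The part of these in the values was not tested.

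**Figure D5:**
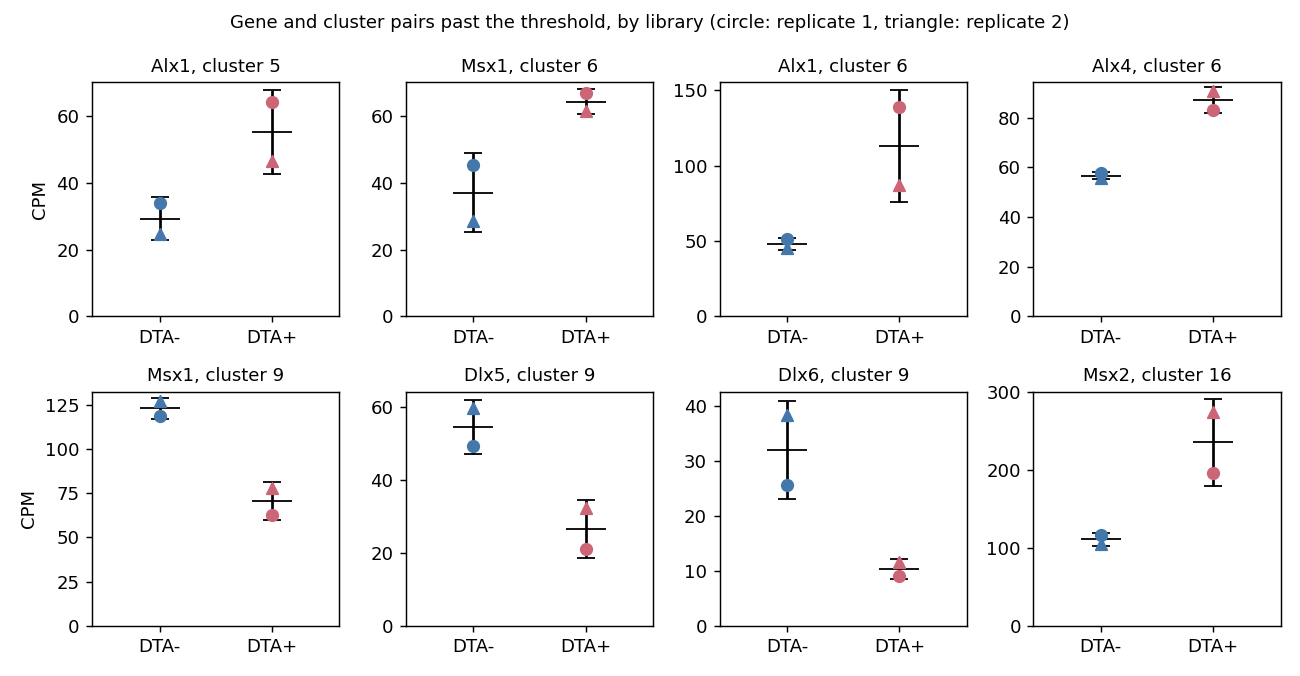
CPM by library for the 8 pairs of gene and cluster past the threshold, with the mean and SD of each genotype in black. In each panel both DTA+ libraries lie on one side of both DTA- libraries.

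In the subdermal prepuce-like cluster 6 (Thbd, Ptgis), mesenchyme under the skin of the prepuce, Alx1, Msx1 and Alx4 rose. Alx1 was 51.1 and 45.4 CPM in the DTA- libraries and 139.1 and 86.9 in the DTA+ libraries (log2 fold change 1.15, SE 0.21, adjusted p = 0.00087 by edgeR). Alx4 was 57.6 and 55.6 against 83.3 and 90.8 CPM (log2 fold change 0.57, adjusted p = 0.046 by edgeR), and Msx1 was 45.4 and 28.7 against 67.0 and 61.7 (0.72, adjusted p = 0.042). The genotypes did not overlap for any of the 3, nor for 56.1% of all genes. These were 3 of 3 members tested, where 5.89% of all genes tested were higher and 13% changed. The thinned share of cells with Alx1 was 3.2% (95% exact binomial interval 1.8% to 5.3%, counting error only) and 4.0% in the DTA- libraries, and 13.1% (10.0% to 16.8%) and 7.8% in the DTA+ libraries.

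Alx1 in cluster 6 held in 14 of 16 alternatives, including DESeq2 (adjusted p = 0.0041) and thinning, and not without DTA+ 1 (adjusted p = 0.064) or with no upper UMI limit (0.11). Msx1 and Alx4 each held in 7 of 16, and neither held with DESeq2 or with thinned cells. Without DTA- 2 or without either DTA+ library the adjusted p was 0.11 to 0.19 for Msx1 and 0.051 to 0.34 for Alx4. Distal glans markers moved with them, as Tac1, Inhba and Wnt5a of 5 tested were higher and the list summed to 618 and 550 CPM against 994 and 1064. Of the subdermal prepuce markers, Cd34, Ptgis and Smoc1 of 6 tested were lower, so the cluster itself differed between genotypes. At clustering resolution 1.2 the subdermal prepuce-like cells parted largely by genotype. The cluster numbered 15 there held 46 and 19 cells in the DTA- libraries against 412 and 423 in the DTA+ libraries. The cluster numbered 17 there held 425 and 398 against 7 and 18. The match of cluster 6 was the former, with under 20 cells in DTA- 2, so resolution 1.2 is not among the 16 alternatives. The part of these in the result was not tested.

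The gene lists had calls in both directions in cluster 6. Bmp4, a ligand, fell from 207 and 194 CPM to 74 and 76 (log2 fold change -1.47, SE 0.17), while Bmp2 and the transducer Smad9 rose from low levels (Bmp2 from 5.7 and 7.2 to 13.7 and 15.9 CPM). These were 3 of 13 tested, with a list median of 0.24 beside 0.00 over all genes. Of 5 osteogenic genes tested, Runx2, a bone transcription factor, was higher (8.7, 2.4, 29.2 and 17.2 CPM) and Alpl and Col1a1, an alkaline phosphatase and a collagen, were lower. Prrx1 was higher and Prrx2 lower among 8 homeobox genes tested, and Klf4 was lower among 3 epidermal genes. Of 7 endothelin axis genes, 0 passed.

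In cluster 5 (Coch, Meox2, Wif1), Alx1 was 33.8 and 24.8 CPM in the DTA- libraries and 64.3 and 46.5 in the DTA+ libraries, with no overlap, as for 52.9% of all genes (log2 fold change 0.89, SE 0.23, adjusted p = 0.034 by edgeR). It was 1 of 4 members tested, where 3.67% of all genes were higher. The call held in 13 of 17 alternatives. It did not hold with DESeq2, with thinned cells, without DTA- 2 or without DTA+ 1. Alx4 was 85.7 and 103.7 against 109.3 and 161.3 CPM there, without overlap and short of the threshold (adjusted p = 0.15). Msx1, at 116.6, 47.1, 74.7 and 112.8 CPM, overlapped. Distal glans markers Tac1 and Wnt5a of 7 tested were higher (list sums of 843, 812, 1254 and 1411 CPM). Sox9 of 2 corpus cavernosum markers was higher, Pclaf of 7 proliferative markers was lower, and of 5 subdermal prepuce markers Thbd and Ptgis passed, 1 in each direction. The part of these in the result was not tested. Of the BMP list, Id1, Id3 and Smad7 of 13 tested were higher, Id1 at 414, 368, 998 and 961 CPM. Of 10 other homeobox genes tested, Prrx1 was higher (310.5, 285.8, 448.5 and 436.8 CPM).

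In cluster 16 (Hand2, Prss35), where Dlx5 and Dlx6 peaked, Msx2 rose. It was 117.0 and 104.9 CPM in the DTA- libraries and 196.2 and 274.8 in the DTA+ libraries, both above both controls, where 41% of all genes did not overlap (log2 fold change 1.11, SE 0.21, adjusted p = 0.010 by edgeR). It was 1 of 6 members tested, where 0.664% of all genes were higher. The call held in 12 of 14 alternatives, DESeq2 among them (adjusted p = 0.047), and not without DTA+ 2 (0.13) or with thinned cells (0.25). Msx1 (302.6, 302.9, 392.5 and 373.0 CPM), Dlx5 (306.6, 203.9, 337.4 and 311.0) and Dlx6 (102.9, 100.5, 147.9 and 119.7) were also higher in both DTA+ libraries, and did not pass (adjusted p = 0.46, 0.52 and 0.53). Mef2c, an effector of the endothelin pathway, was 28.2 and 23.6 against 86.0 and 87.0 CPM, 1 of 7 tested on its list, and Smad9 and Runx2 were the single genes called of 14 BMP and 6 osteogenic genes. The distal glans marker Wnt5a of 7 tested was higher (list sums of 1551, 1540, 2149 and 2400 CPM), and Hapln1 of 3 corpus cavernosum markers and Smoc1 of 4 subdermal prepuce markers were lower. The part of these in the result was not tested.

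In clusters 1, 4 and 7, where several of these genes were high, 0 members passed: 0 of 6 in cluster 1 (0.77% of all genes), 0 of 5 in cluster 4 (8.77%) and 0 of 7 in cluster 7 (2.89%). Msx1 in cluster 1 was 536.6, 418.0, 397.8 and 458.2 CPM in DTA- 1, DTA- 2, DTA+ 1 and DTA+ 2 (log2 fold change -0.18, SE 0.14), and in cluster 4 the values were 498.3, 379.5, 475.3 and 527.4 (0.14, SE 0.12). Alx1 in cluster 1 was 171.7 and 164.4 against 258.4 and 214.2 CPM, without overlap, as for 44.3% of all genes (log2 fold change 0.47, SE 0.15, adjusted p = 0.19). Dlx5 in cluster 7 was 364.0 and 290.5 against 224.1 and 270.7 CPM (-0.39, SE 0.17, adjusted p = 0.26). Over the mesenchymal clusters in which each could be tested, Alx1 was higher in DTA+ in 11 of 13 and Alx4 in 12 of 15. Msx2 was higher in 8 of 10 and Msx1 in 10 of 16. Dlx5 was lower in 7 of 9 (median log2 fold change -0.05) and Dlx6 in 6 of 8 (-0.16). Of all genes tested in such a cluster, 48.2% (cluster 3) to 51.4% (cluster 15) were higher. These clusters share libraries, so the counts are a description. The counts include low-level clusters, such as clusters 0 and 3 for Msx1, read as background above, and cluster 0 for Alx1. There Alx1 was 3.3 and 2.9 CPM in the DTA- libraries against 7.5 and 7.4 in the DTA+ libraries, beside a macrophage-like mean of 4.0. In the epithelium-like cluster 20, Msx2 was 46.3, 36.3, 41.8 and 47.5 CPM, and 0 of 2 members passed, as did 0 of 8 epidermal genes tested. There 0% of all genes passed, with 229 of 4924 at an unadjusted p under 0.05.

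Whether the response differed between mesenchymal clusters was tested directly, with an edgeR F test of genotype by cluster over 16 clusters and with each library as a term. Msx1 (adjusted p = 0.025) and Dlx6 (0.035) passed, 2 of 7, where 11.8% of the 12551 genes tested did. Msx2 (0.076), Dlx5 (0.091), Alx1 (0.32), Dlx3 (0.39) and Alx4 (0.68) did not. At clustering resolutions 0.4 and 1.2 Msx2 did pass (adjusted p = 0.041 and 0.039 by the same test). In the separate tests of each cluster, the log2 fold changes of Msx1 ran from -1.22 in cluster 8 to 0.92 in cluster 3. Among them were -0.81 in cluster 9, 0.72 in cluster 6 and 0.78 in cluster 0. In clusters 0 and 3 its level was at background. Msx1 was also lower in corpus cavernosum-like cluster 26 (-1.80 to -0.94 over the main test and 15 alternatives, 80 UMIs in all). There the main edgeR test gave an unadjusted p under 0.05 and did not pass the adjusted threshold. For Dlx6 the same tests ran from -1.84 in cluster 8 to 0.59 in cluster 10. The results moved with single libraries. Neither gene passed without DTA- 2 or without DTA- 1. Msx1 alone passed without DTA+ 1, and both passed without DTA+ 2. Each of these fits left 1 library in a genotype, so its spread came from the other genotype.

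Of the lists of related genes, 1 gene was called over mesenchyme as a whole. Meox2, a homeobox gene that leads cluster 5, was 79.6 and 88.7 CPM in the DTA- libraries and 47.2 and 35.8 in the DTA+ libraries (log2 fold change -1.09, SE 0.16, adjusted p = 0.036 by edgeR), 1 of 19 tested on its list. Of 16 BMP, 8 endothelin axis, 9 osteogenic and 8 epidermal genes tested there, 0 passed. The genes of these lists named in clusters 5, 6, 9 and 16 are all those that passed there, and they were chosen after their values were seen.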

How the data were processed

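Single cells of 4 libraries (2 DTA-, 2 DTA+) were profiled with a droplet 3′ assay. The authors deposited raw UMI counts per gene and cell, made with Cell Ranger (4.0.0 per the labels) against mm10 with tdTomato added. A cell was kept if its UMIs lay between the limits of 1000 and 7500, if mitochondrial genes took 25% of them or less, and if the haemoglobin genes took no more than 25% (Hba) and 50% (Hbb). Seurat 5.3.0 clustered all libraries jointly, with 1994 variable genes and 30 components, the homeobox families left out. Clusters were named from marker lists. Doublets were not removed, since scrublet (scanpy 1.11.5, Python 3.11.15) marked 0 or 1 cell per library at its automatic threshold. Their true number is not known. In an alternative, the 662 to 799 cells per library with the highest scores were left out, a number set from the count of deposited cells. Counts were summed per library and cluster (at least 20 cells in every library) and tested in R 4.3.3 with edgeR 4.0.16 (quasi-likelihood, TMM, filterByExpr, Benjamini-Hochberg over all genes tested, limma 3.58.1 and Matrix 1.6.5 beneath), with DESeq2 1.42.0 as an alternative. CPM are counts per 1000000 UMIs of that library and cluster. Binomial intervals (95%, exact) cover counting error only. On simulated counts, 48.4% of 2-fold and 93.8% of 4-fold changes were recovered in cluster 9. The shares were 54.6% and 96.9% in cluster 6, and 37.8% and 91.8% in cluster 16. These simulations gave all genes 1 common spread and changed genes picked at random. They therefore do not give the chance of detecting a change in the members.

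The members and gene lists were chosen with earlier results of these data known. Genes named by rule were the 7 members, the 3 genes most like each (at 20 CPM or more in a cluster), and list genes called over mesenchyme as a whole. List genes called in single clusters were named as well, after their values were seen. Replicate numbers were not used to pair the libraries in the main tests. Each fit that left out a library held 1 library of that genotype, so its p-value rests on the spread within the other. 1 helix sequence is not reported here.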

Additional observations from a re-analysis of the deposited data

Results flagged for a closer look

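The response to ablation differed between mesenchymal clusters for Msx1 (adjusted p = 0.0248) and Dlx6 (adjusted p = 0.0353) by the edgeR F test of genotype by cluster. Msx1 was lower in DTA+ in cluster 9 and higher in cluster 6, and Dlx6 was lower in cluster 9. Each moved with single libraries, as given above. Neither passed at clustering resolution 0.4 (adjusted p = 0.058 and 0.067), and both passed at resolution 1.2 (0.029 and 0.024). Msx2, which did not pass in the main test, passed at both resolutions.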

How the results depend on the processing

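The count of members called over all cells was 0 in every alternative other than a crossed replicate block, which gave 1. In mesenchyme it was 0, and 1 with the likelihood ratio test, with no filter on low counts and with the crossed block, and 0 to 1 on leaving out a library. Of the pairs of gene and cluster, 8 were called, against 2 with DESeq2, 1 with cells thinned to 1000 UMIs, 3 at resolution 0.4, 4 at resolution 1.2 and 4 to 12 on leaving out a library (4 without DTA+ 1). The test of the difference between clusters called 2 members, 5 with no filter, 1 at resolution 0.4, 3 at resolution 1.2 and 0 to 5 on leaving out a library. The causes were not tested. With the replicate block 7 pairs were called, Alx4 in cluster 6 being lost (adjusted p = 0.068 by edgeR), and with the crossed block 17. Shares of all genes called were not computed for these alternatives. Whether the changes in count are particular to the members is therefore not known. Same-numbered libraries deviated in opposite directions (r = -0.34 over 15202 genes). With 2 libraries per genotype, the crossed pairing gives the same value with the other sign (0.34). This value therefore cannot tell whether the numbers pair the libraries.

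Signs of the log2 fold change turned in 24 cases, none of them past the threshold. On leaving out each library in turn, the fold change over all cells ran from -0.30 to 0.68 for Alx4, -0.20 to 0.38 for Dlx6, -0.36 to 0.75 for Dlx5, -0.064 to 0.72 for Alx1, -0.46 to 0.81 for Msx2 and -0.45 to 0.53 for Msx1. In mesenchyme it ran from -0.28 to 0.64 for Alx4, -0.20 to 0.33 for Dlx6, -0.38 to 0.72 for Dlx5, -0.074 to 0.71 for Alx1, -0.45 to 0.80 for Msx2 and -0.46 to 0.50 for Msx1, and for Dlx5 in cluster 4 from -1.39 to 0.11. Msx1 over all cells was 0.012 when thinned, Msx1 in cluster 0 was -0.37 with no upper UMI limit, and Alx1 in cluster 10 was -0.090 at resolution 0.4. With 2 libraries per genotype, low genes such as Dlx3 limit what could be detected.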
